A study of Mus musculus with 27 samples.

Results

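The lungs of mouse fetuses grown from in vitro derived blastocysts were compared with the lungs of fetuses from natural pregnancies. In the group called EG in vitro, blastocysts derived in vitro were transferred to pseudopregnant recipients. The control fetuses developed in vivo in naturally ovulating females, so culture of the embryo and its transfer cannot be told apart in this comparison. The labels give all fetuses of both groups as male, of the strain C57BL/6 X BALBc, and taken on day 18 of gestation. RNA of the left lung lobe was measured on Illumina bead arrays in 3 pools a group, with 3 technical arrays a pool that were averaged. The labels do not give how many fetuses or litters a pool held, nor how days of gestation were counted in recipients, so the p-values measure the spread between these pools. Genes were taken when their probe was detected on at least 6 of the 9 arrays of either group, which gave 11911 of the 19057 genes named on the array.

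By this age the mouse lung has passed from branching to sac formation. The tips of the branching tree hold dividing progenitors that express Sox9, and these give way to flat cells that line the gas exchange surface and to cells that make and store surfactant, the lipid and protein film that keeps the sacs open at birth. Airway cells begin to secrete defence proteins, the mesenchyme thins and lays down elastin, capillaries come to lie against the epithelium, and cell division slows.

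All levels below are log2 signals of a pool after background correction and quantile normalization, with the 3 pools of a group given in the order of their replicate numbers. Changes are log2 differences, EG in vitro minus control, ± their standard error, with n = 3 pools in each group. P-values are limma's, adjusted by the Benjamini-Hochberg method over 22872 probes, and "rose" and "fell" are used of changes with an adjusted p under 0.05. A bead signal depends on its probe, so levels are not compared between genes. Where a gene was detected on few arrays of a group, its signal there lay near background and the size of its change is uncertain. The tissue is a mixture, and fewer cells of a type cannot be told apart from less RNA per cell.

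The arrays of the 2 groups detected 21227 to 23449 probes each. Pools with replicate number 3 stood apart from the others along the second principal component, which held 26.7% of the variance, and were the dimmest of their group. The first component held 63.6%, and both groups of pools lay on opposite sides of it. The lung marker Nkx2-1 was at 13.12 to 13.58 in every pool of both groups. It was 1 of 6 lung epithelium markers tested, and the other 5 fell, against 23.1% of all genes. Summed over these 6 markers the signal was 88180 to 92150 in control and 28950 to 31550 in EG in vitro pools. Control replicate 1 goes against its label in one gene: Xist, the RNA that coats the inactive X chromosome of female cells, was at 10.86 there and at 4.70 and 4.59 in the other control pools, while EG in vitro pools were at 5.43, 5.39 and 4.56. The Y-linked gene Eif2s3y was at 10.69 to 11.49 in the control pools, so RNA of a Y-linked gene was also present in replicate 1, at 11.49. Without control replicate 1, 2145 genes rose and 2357 fell, 4455 of the 5365 calls made with it passed again in the same direction, and all 5365 kept their sign. Over 40 gene lists the median moved by at most 0.217 without it, in the mitosis list, and the sign of 39 of the 40 medians was the same.

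With all pools, 2608 genes (21.9%) were higher and 2757 (23.1%) were lower in EG in vitro than in control lung. Counts of list members below are to be read against these shares. When the replicate number was a block in the fit, 3642 of 11911 genes were higher and 3530 lower. Blocked counts of list members are to be read against those. The median change over all genes was 0.03, with the 5th percentile at -1.72 and the 95th at 1.37. The tails were unequal: 1023 genes rose and 1440 fell by at least 2-fold, and 26 rose and 137 fell by at least 8-fold. Genes were divided into 4 equal groups by their control level, which also enters the change itself. Lower genes made up 16.5% of the group with the lowest level and 30.8% of that with the highest. The share that fell by at least 2-fold was 6.85% in the lowest group, where background limits a fall, and at least 13.6% in each of the other three, with no rise from the second to the highest. The pools of the 2 groups did not overlap in 57.5% of all genes. A total of 4894 genes had a second kept probe. Both probes passed in 1518 of them, in the same direction in 1507 and in opposite directions in 11, which include H2-Q8 and Dnah11.

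**Figure D1:**
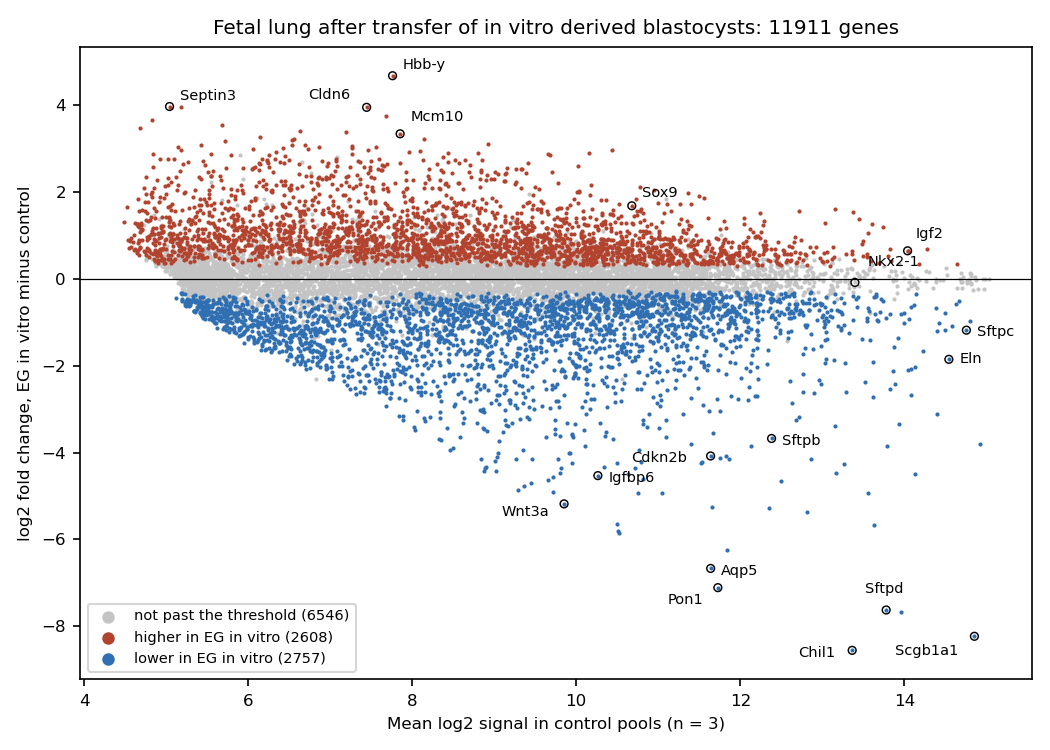
Change against level for 11911 genes. The x axis is the mean log2 signal of the 3 control pools and the y axis the log2 fold change, EG in vitro minus control. Red points rose (2608), blue points fell (2757) and grey points did not pass the threshold. The deepest falls lie at high control levels on the right, where Scgb1a1, Sftpd and Chil1 are, while Nkx2-1 lies close to 0. The slanted lower edge on the left is set by background, below which a signal cannot fall.

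The 20 deepest falls held several secreted products of lung cells. Scgb1a1, the main secretory protein of club cells, was at 14.70, 14.92 and 14.95 in control pools and at 6.64, 7.14 and 6.10 in EG in vitro pools. The groups were far apart, and the change was -8.23 ± 0.53 (adjusted p = 1.26e-05), or 300-fold. Chil1, a chitinase-like secreted protein, was at 13.25, 13.02 and 13.82 in control pools and was detected on 0 of 9 EG in vitro arrays, at least 288-fold lower (adjusted p = 1.37e-06). Sftpd, the surfactant collectin that binds microbes, went from 13.59, 13.88 and 13.87 to 6.65, 6.08 and 5.74, a change of -7.62 ± 0.44 (adjusted p = 7.87e-06). Inmt, an N-methyltransferase abundant in lung, fell by 7.66 ± 0.33, and Pon1, a paraoxonase, was at least 92.6-fold lower and detected on 0 of 9 EG in vitro arrays. Non-overlap of the pools was part of the rule by which these 5 genes were named.

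The rest of the 20 covered several roles. Aqp5, the water channel of flat alveolar cells, fell by 6.67 ± 0.27 and was detected on 1 of 9 EG in vitro arrays. Car4, a carbonic anhydrase of lung capillaries, was at least 39.7-fold lower, and Lcn2, which binds bacterial iron carriers, at least 40.1-fold lower. Chia1, an acidic chitinase, fell by 6.24, and Cbr2, a carbonyl reductase of lung, by 5.66. Gjb6, a gap junction protein on 1 of 9 EG in vitro arrays, fell by 5.63, Retnla, a secreted resistin-like protein, by 5.38, and Sftpa1 by 5.27. Msln, a surface protein of the lining mesothelium, fell by 5.25, Cblif, known as the intrinsic factor that carries vitamin B12, by 4.94, and Scd1, which desaturates fatty acids, by 4.93. The complement components Hc and C6 also belong here, as does Tshb, the beta chain of thyrotropin, which was at least 17.1-fold lower. The ligand gene Wnt3a was at least 25.3-fold lower. Adjusted p ranged up to 2.58e-05 over these 20 genes.

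The 20 genes with the largest rises were led by an embryonic globin and held many genes of DNA synthesis. Hbb-y, the embryonic beta-type globin, rose by 4.67 ± 0.23 (adjusted p = 4.35e-06). Cldn6, a tight junction protein of embryonic epithelia, was at 7.89, 7.11 and 7.34 in control pools and at 11.06, 11.29 and 11.81 in EG in vitro pools, a rise of 3.94 ± 0.29 (adjusted p = 2.12e-05). Septin3, a septin, and Lin7a, a cell polarity scaffold, rose by 3.96 and 3.94 and were detected on 3 and 5 of 9 control arrays. Adamts18, a secreted protease, was at least 9.96-fold higher, and Col2a1, the main collagen of cartilage, at least 8.01-fold higher, both detected on 0 of 9 control arrays. Cfi, the protease that inactivates complement, rose by 3.53 ± 0.12. Pclaf, which binds the replication clamp, rose by 3.74, and Dctd, which makes precursors of thymidine nucleotides, by 3.39. Cdc6 and Mcm10, which load and start the replication machinery, rose by 3.37 and 3.33. A second probe of Cdc6 rose by only 1.23, while that of Adamts18 rose by 3.46. The DNA repair genes Rad54b and Rad54l rose by 3.22 and 3.19, the kinetochore gene Cenph by 3.22, and the cohesion gene Dscc1 by 3.16. The histone genes H3c1, H2ac15 and H3c7 rose by 3.27, 3.11 and 3.08, and their near-identical copies mean that a probe may read more than one of them. Col9a1, another cartilage collagen, and Hba-x, the embryonic alpha-type globin, rose by 3.08 and 3.07. Dscc1 and Col9a1 were detected on 6 of 9 control arrays, and adjusted p ranged up to 0.00179 over these 20 genes.

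Among genes of surfactant and the lamellar body, the organelle in which surfactant is stored, 12 of 14 fell and 0 rose, with a median change of -2.96. Over all genes 23.1% fell. The pools of the 2 groups did not overlap in 12 members, against 57.5% of all genes. All 4 surfactant protein genes fell but by unequal amounts. Sftpb, needed to spread the film, went from 12.13, 12.13 and 12.89 to 8.54, 8.72 and 8.85, a change of -3.68 ± 0.22 (adjusted p = 8.56e-06). Sftpc, the most specific product of surfactant cells, went from 14.81, 14.83 and 14.63 to 13.61, 13.62 and 13.48, a change of -1.19 ± 0.13 (adjusted p = 0.000161). Its control values lie close to the highest level of any probe, 15.11, where bead signals may level off, and the part this had in the smaller change was not tested. Sftpa1 went from 12.17, 12.66 and 12.23 to 7.40, 6.47 and 7.36. The lipid pump Abca3 fell by 2.11 ± 0.15, Lpcat1, which makes the main surfactant lipid, by 1.77 ± 0.20, and the protease Napsa by 3.25 ± 0.27. Lamp3 of the lamellar body membrane fell by 4.16, and the phosphate carrier Slc34a2 fell by 3.86. Lysozyme Lyz2 fell by 3.35, and the protease Ctsh by 2.67. Pgc and the lipid receptor Cd36, the other 2 members, changed by -0.30 and -2.35 (adjusted p = 0.335 and 0.0624), Cd36 being detected on 4 of 9 EG in vitro arrays.

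The start of the Sftpa1 gene is shown because this gene fell 38.6-fold and, like the embryonic globin gene Hba-x that rose, begins beside a TATA element. The stretches are the 100 bases before the RefSeq start in build GRCm38.p6, written 5′ to 3′ on the gene's strand, with the letters TATAAA in capitals. They lie at chr14:41131688-41131787 on the plus strand for Sftpa1 and at chr11:32276500-32276599 on the plus strand for Hba-x.
Sftpa1: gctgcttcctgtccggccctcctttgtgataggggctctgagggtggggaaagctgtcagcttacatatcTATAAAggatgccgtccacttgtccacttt
Hba-x: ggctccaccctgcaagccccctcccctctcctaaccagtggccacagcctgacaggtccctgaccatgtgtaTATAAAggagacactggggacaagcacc
Promoter windows from 250 bases before to 50 bases after the start were at hand for 9615 of the genes tested, and the letters TATAAA stood on either strand in 7.74% of them. Among genes that fell by at least 2-fold the share was 11.3% of 1122, and among genes that rose by at least 2-fold it was 9.15% of 820. Windows of genes that fell that far held a median of 11.5 CpG pairs, against 21 in those that rose that far and 20 in all genes tested. These are counts of letters in a window and say nothing of what binds there.

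Genes of airway secretion and defence fell as a group, 10 of 11 against 23.1% of all genes, with a median of -3.28, or -2.96 with the 4 members that EG in vitro arrays did not detect at their bound. Scgb3a1, another secretoglobin, was at 8.48, 9.58 and 6.90 in control pools and on 0 of 9 EG in vitro arrays, at least 8.74-fold lower. Slpi, a protease inhibitor of airway fluid, was at least 7.78-fold lower and also detected on 0 of 9. Lyz1 fell by 3.79 ± 0.23, and the stress protein Nupr1 fell by 3.45 ± 0.31. Lyz1 and Lyz2 are near-identical lysozyme genes and may share signal.

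The transcription factors of lung epithelium changed in both directions. Among 25 of them 5 rose and 8 fell, with a median of -0.09, against 21.9% higher and 23.1% lower over all genes. Nkx2-1, the factor that specifies lung, was at 13.58, 13.50 and 13.12 in control pools and 13.43, 13.22 and 13.28 in EG in vitro pools, a change of -0.09 ± 0.17 (adjusted p = 0.726). Foxa2, a forkhead factor of the same cells, was at 8.46, 8.15 and 8.68 and at 8.19, 8.45 and 8.60, a change of -0.02 ± 0.17. Their pools overlapped between the groups. Of the factors known from the dividing tips, Sox9 went from 10.79, 10.70 and 10.54 to 12.25, 12.24 and 12.57, a rise of 1.68 ± 0.14 (adjusted p = 4.52e-05). Sox11 rose by 1.10 ± 0.11, Etv4, which answers FGF signals, by 2.09 ± 0.21, and Foxp2 by 1.34 ± 0.23. Hopx, of flat alveolar cells, went from 12.94, 12.80 and 12.97 to 10.07, 10.49 and 10.27, a change of -2.63 ± 0.16. Tfcp2l1 fell by 3.11 ± 0.20, Klf5 by 1.29 ± 0.26 and Cebpa, which drives surfactant cell maturation and was on 6 of 9 EG in vitro arrays, by 1.43 ± 0.32. Etv5, a tip factor related to Etv4, changed by 0.39 ± 0.25 and Sox2, of the airway lineage, by 0.70 ± 1.03, and neither passed. In Sox2 the third pool of each group was far below the other two of its group, at 5.17 and 6.57.

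**Figure D2:**
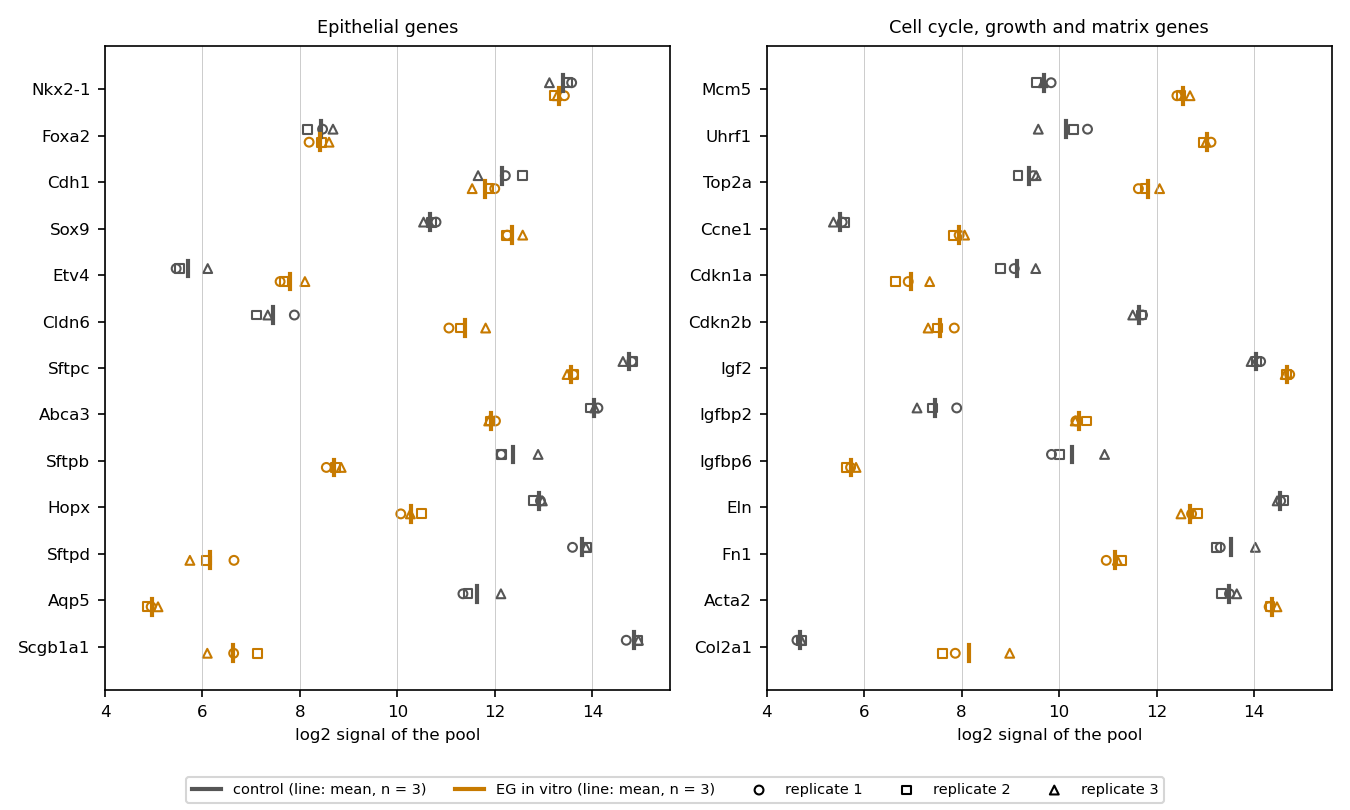
Log2 signal of each pool for 26 genes. Circles, squares and triangles are replicates 1, 2 and 3, grey is control, orange is EG in vitro, and a vertical line is the mean of 3 pools. Nkx2-1, Foxa2 and Cdh1 overlap between groups, the surfactant genes are lower in all EG in vitro pools, and Mcm5, Top2a and Ccne1 are higher in all of them. Levels of different genes are on different probes and are not comparable.

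General epithelial genes were lower in part, with 11 of 21 lower, 0 higher and a median of -0.50, against 23.1% lower over all genes. Cdh1, the adhesion protein that all epithelia share, changed by -0.34 ± 0.24 (adjusted p = 0.301). Epcam was at 6.86, 8.23 and 4.79 in control pools and 9.24, 8.58 and 5.98 in EG in vitro pools, with the third pool of each group lowest, and changed by 1.31 ± 1.22 (adjusted p = 0.438). With the replicate number as a block it passed at an adjusted p of 0.0114, and 1 member then was higher. The keratins Krt8, Krt18 and Krt19 fell by 0.67, 0.82 and 1.57, the trafficking gene Rab25 by 1.56, and the junction genes F11r, Ocln and Jup by 1.48, 1.22 and 1.20, Jup being on 7 of 9 EG in vitro arrays. These falls were smaller than the median of the surfactant list. Leaving out control replicate 2 also brought 1 member above the threshold as higher.

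Junction and water channel genes divided by member. Of 19 claudins and aquaporins 2 were higher and 9 lower, against 21.9% and 23.1% of all genes. The median of the list was -0.57. Cldn18, the claudin of alveolar cells, fell by 1.27 ± 0.14, Cldn10 by 1.18 ± 0.11 and Cldn5, of endothelium, by 1.11 ± 0.23. The water channels Aqp1, Aqp4 and Aqp3 fell by 2.53, 2.18 and 1.37, Aqp3 being detected on 1 of 9 EG in vitro arrays. Cldn6 and Cldn11 were the 2 that rose. Cldn11 rose by 0.69 ± 0.21 (adjusted p = 0.0285), and the count of higher members was 1 when control replicate 3 or EG in vitro replicate 1 or 3 was left out.

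Neuroendocrine cells of the airway make peptides and are among the first to differentiate. Of 8 of their genes 3 rose and 2 fell, with a median of -0.26, against 21.9% higher and 23.1% lower over all genes. Grp, the peptide gene, fell by 1.25 ± 0.29, and Resp18, of secretory granules, by 0.80 ± 0.17. Uchl1, a ubiquitin hydrolase of neural cells, rose by 1.61 ± 0.21, the adhesion gene Ncam1 by 1.19 ± 0.25 and the factor Insm1, detected on 1 of 9 control arrays, by 0.68 ± 0.15. Scg5 changed by -0.35 ± 0.18 (adjusted p = 0.165). Resp18 and Scg5 were detected on 2 of 9 EG in vitro arrays each.

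Signals between epithelium and mesenchyme drive branching. The counts of their lists are to be read against the 21.9% of all genes that rose and the 23.1% that fell, and most lay near or below those shares. In the hedgehog list 4 of 11 rose, 1 fell and the median was 0.42. Shh, the epithelial ligand, changed by -0.15 ± 0.30 (adjusted p = 0.73), and its receptor Ptch1 by 0.61 ± 0.25 (adjusted p = 0.0858, and 0.0301 with the replicate block). Downstream, Gli3 rose by 1.78 ± 0.13, Gli2 by 1.16 ± 0.11, the transducer Smo by 1.07 ± 0.19 and the pathway inhibitor Sufu by 0.42 ± 0.11. Hhip, which sequesters the ligand, went from 10.84, 10.84 and 10.80 to 10.02, 10.12 and 9.90, a change of -0.82 ± 0.17.

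In the Wnt list 7 of 38 rose and 7 fell, with a median of -0.03. With the replicate block 12 fell, against 3530 of all 11911 genes. Among ligands, Wnt7b of the epithelium rose by 1.47 ± 0.17, Wnt3a fell as given above, and Wnt2 and Wnt5a of the mesenchyme changed by 0.23 ± 0.20 and -0.20 ± 0.18 and did not pass. Rspo2, which raises Wnt signals, rose by 1.70 ± 0.21, and the inhibitor Sfrp1 by 0.81 ± 0.22. The feedback inhibitors Notum and Nkd1 fell by 1.99 and 1.82, while the targets Axin2 and Lef1 changed by -0.21 ± 0.17 and 0.25 ± 0.26 and did not pass. In the Notch list 1 of 17 rose and 3 fell, with a median of -0.26, and 2 rose without control replicate 3. The target Hey1 fell by 1.75 ± 0.12, the ligand Jag2 by 1.04 ± 0.32 and the endothelial receptor Notch4 by 0.95 ± 0.20, while Heyl rose by 1.24 ± 0.21. Notch1 changed by -0.02 ± 0.18, Hes1 by -0.26 ± 0.17 and the non-canonical ligand Dlk1 by -0.23 ± 0.10, and these 3 did not pass.

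The FGF list had 3 of 19 higher, 6 lower and a median of -0.19. The ligand of branching, Fgf10, fell by 0.55 ± 0.17 (adjusted p = 0.0298), Fgf7 by 1.25 ± 0.14, Fgf1 by 1.84 ± 0.18 and the feedback inhibitor Spry4 by 0.79 ± 0.25. Fgf9, which keeps mesenchyme dividing, rose by 0.97 ± 0.17 and was detected on 2 of 9 control arrays. The receptor Fgfr2 changed by -0.12 ± 0.10 and Spry2 by -0.18 ± 0.58. The count of lower members rested on the pools used: it was 3 without control replicate 1 and 2 without control replicate 3, without EG in vitro replicate 1 or without EG in vitro replicate 2.

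In the TGF-beta and BMP list 2 of 31 rose, 8 fell and the median was 0.12. The receptor genes Acvrl1, Tgfbr3 and Tgfbr2 fell by 1.69, 1.34 and 0.94, and the ligand Bmp6 by 2.31 ± 0.19, detected on 5 of 9 EG in vitro arrays. Bmp7 rose by 2.22 ± 0.19 from 5.28, 4.90 and 4.99, detected on 3 of 9 control arrays, to 6.89, 7.46 and 7.47. The ligands Tgfb2 and Bmp4 changed by 0.34 ± 0.28 and 0.23 ± 0.25, the inhibitor Smad6 by -0.38 ± 0.33 and the target Id1 by -0.09 ± 0.15, and these 4 did not pass. A second probe of Bmp4 rose by 0.93 (adjusted p = 0.0275), so its probes disagree. With the replicate block 6 members were higher, against 3642 of all 11911 genes. The count was 1 without control replicate 3 or any single EG in vitro replicate. Among 13 retinoic acid genes 1 rose and 3 fell, with a median of -0.03, and 2 rose with the block or without control replicate 2. The synthesis enzyme Aldh1a1 fell by 1.21 ± 0.25, the degrading enzyme Cyp26b1, on 1 of 9 EG in vitro arrays, by 0.68 ± 0.16, and the receptor Rarg by 0.59 ± 0.13, while Rarb rose by 0.92 ± 0.13. Aldh1a2 and Crabp1 changed by -0.26 ± 0.32 and 0.80 ± 0.40 and did not pass.

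Insulin-like growth factors drive fetal growth, and binding proteins hold them back or carry them. The ligand Igf2 went from 14.14, 14.04 and 13.94 to 14.73, 14.67 and 14.64, a rise of 0.64 ± 0.10 (adjusted p = 0.00131). Its pools did not overlap, as in 57.5% of all genes. Igf1 rose by 0.93 ± 0.24 (adjusted p = 0.0156). The binding proteins moved in both directions: Igfbp2 went from 7.90, 7.40 and 7.09 to 10.35, 10.56 and 10.33, a rise of 2.95 ± 0.21, while Igfbp6 went from 9.84, 10.01 and 10.93 to 5.72, 5.64 and 5.83, a change of -4.53 ± 0.42. Igfbp3 and Igfbp7 fell by 2.17 and 2.07, and the carrier subunit Igfals, on 6 of 9 EG in vitro arrays, fell by 1.80. The insulin receptor Insr fell by 0.86 ± 0.10. The receptors Igf1r and Igf2r changed by -0.42 ± 0.16 (adjusted p = 0.0675, and 0.0211 with the replicate block) and -0.03 ± 0.14 (adjusted p = 0.881). Of the 15 members 4 rose and 6 fell, against 21.9% and 23.1% of all genes. The median of the list was -0.19, and 2 rose without EG in vitro replicate 3.

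Genes of the fetal growth program that are shut off late in development were measured for 8 members. Of these 3 rose and 1 fell, against 21.9% and 23.1% of all genes. The median of the list was 0.75, or 0.49 with the undetected member at its bound. The largest change of the list, 2.85, was that of Afp, which is also a liver marker below and did not pass. The RNA-binding proteins Igf2bp1 and Igf2bp3 rose by 1.30 ± 0.33 and 0.67 ± 0.11. Lin28b, which blocks let-7 microRNAs, was at 4.55, 4.75 and 4.66 in control pools, on 0 of 9 arrays, and at 6.06, 5.47 and 4.90 in EG in vitro pools, on 6 of 9. It was at least 1.25-fold higher (adjusted p = 0.0378), a call that was lost in 8 of the alternatives with an adjusted p of up to 0.105, among them an offset of 50 and the removal of any control pool or of EG in vitro replicate 1 or 2. Arid3b, known as a let-7 target, fell by 1.15 ± 0.27. Hmga2, a chromatin protein of the same program, changed by 1.26 ± 0.80 (adjusted p = 0.247, and 0.0168 with the replicate block). The count of higher members was 5 with the block and without EG in vitro replicate 3, and 1 without EG in vitro replicate 1, and 2 were lower without control replicate 3.

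Imprinted genes are read from one parental copy, and embryo culture is known as a setting in which their marks can be lost. Of 24 measured here 6 rose and 2 fell, with a median of 0.20. Grb10, a growth inhibitor, went from 13.60, 13.38 and 13.47 to 14.24, 14.28 and 14.31, a rise of 0.79 ± 0.10 (adjusted p = 0.000434). Nnat rose by 1.41 ± 0.31, Tssc4 by 0.88 ± 0.13 and Nap1l5, on 4 of 9 control arrays, by 0.74 ± 0.22, and Slc22a18 fell by 1.38 ± 0.27. Cdkn1c, a growth inhibitor from the maternal copy, changed by 0.46 ± 0.25 (adjusted p = 0.184, and 0.00499 with the replicate block), Peg3 by 0.45 ± 0.25 (adjusted p = 0.191, and 0.0359 with the block) and Mest by 0.13 ± 0.17 (adjusted p = 0.58). With the block 11 members were higher, against 3642 of all 11911 genes. Without it the share of members that rose lies near the 21.9% of all genes.

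Among 11 genes that write, read or remove DNA methylation 7 rose and 1 fell, against 21.9% and 23.1% of all genes. The median of the list was 0.81. Uhrf1, which brings the maintenance enzyme to newly copied DNA, went from 10.58, 10.30 and 9.57 to 13.12, 12.96 and 13.01, a rise of 2.88 ± 0.23 (adjusted p = 3.39e-05). Dnmt1, the maintenance enzyme itself, rose by 1.91 ± 0.19, the de novo enzyme Dnmt3b by 1.04 ± 0.12, its partner Dnmt3l, on 1 of 9 control arrays, by 1.21 ± 0.28, and the repair enzyme Tdg by 0.99 ± 0.21. Mbd3, of a repressor complex, rose by 0.81 ± 0.22, and Gadd45a fell by 0.66 ± 0.13. Tet1 changed by 0.63 ± 0.34 (adjusted p = 0.176, and 0.0419 with the replicate block). Uhrf1 and Dnmt1 are known to be made mostly in dividing cells.

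Hox genes keep the position of tissue along the body. Of 12 measured 6 rose and 1, Hoxd8, fell, against 21.9% and 23.1% of all genes. The median of the list was 0.57. Hoxb6 went from 6.42, 6.41 and 6.81 to 8.29, 8.25 and 8.72, a rise of 1.87 ± 0.18. Hoxb5 rose by 1.34 ± 0.12, Hoxb2 by 1.02 ± 0.10, Hoxb7 by 0.90 ± 0.17, Hoxa4 by 0.68 ± 0.12 and Hoxa2 by 0.47 ± 0.11. Hoxa5, which in the mouse is needed for lung and surfactant formation, was at 11.57, 11.60 and 11.43 and at 11.65, 11.39 and 11.61, a change of 0.01 ± 0.12 (adjusted p = 0.941). Hoxd8 was detected on 4 of 9 EG in vitro arrays, and its fall of 0.47 did not pass without control replicate 1 or 2 or EG in vitro replicate 1 or 3.

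Most genes of cell division rose. Of 52 genes of DNA replication 44 rose and 2 fell, with a median of 2.01, and of 43 genes of mitosis 40 rose and 0 fell, with a median of 2.29, against 21.9% and 0.03 over all genes. Mcm5, of the ring that unwinds DNA, went from 9.84, 9.54 and 9.67 to 12.42, 12.50 and 12.69, a rise of 2.85 ± 0.14 (adjusted p = 4.36e-06), and Mcm2 of the same ring rose by 2.50 ± 0.13. The helicase genes Cdc45 and Gins2 rose by 2.57 and 3.01, the polymerase Pole by 3.00, and the nucleotide enzymes Rrm2 and Tk1 by 2.35 and 2.69. The 2 that fell, Rrm2b and Samhd1, are known to serve nucleotide supply outside of the S phase and the breakdown of nucleotides. Pcna, the sliding clamp, was at 10.23, 10.94 and 7.10 in control pools and 12.23, 12.17 and 9.75 in EG in vitro pools. It was higher in the EG in vitro pool of each number, but with the third pool low in both groups the change of 1.96 ± 1.15 had an adjusted p of 0.216, and 0.000351 with the replicate block.

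In mitosis, Top2a, which untangles chromosomes, went from 9.47, 9.16 and 9.53 to 11.63, 11.76 and 12.06, a rise of 2.43 ± 0.15 (adjusted p = 1.17e-05). The kinases Cdk1, Plk1 and Aurkb rose by 2.10, 2.44 and 2.90, and a second probe of Cdk1 rose by only 0.76. The transcription factor Foxm1 rose by 2.22, the motor Kif15 by 2.93 and the protease Espl1, which parts sister chromatids, by 2.76. The 3 members that did not pass, Ccna2, Spc24 and Smc4, changed by 2.69, 0.91 and 1.04 (adjusted p = 0.109, 0.181 and 0.238), with the third pool lowest in both groups. The pools of the 2 groups did not overlap in 40 of the 43 mitosis genes and in 48 of the 52 replication genes, against 57.5% of all genes.

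Promoters of these genes are shown because the lists differ in the short motifs that stand there. The stretches are again the 100 bases before the RefSeq start in GRCm38.p6, 5′ to 3′ on the gene's strand. They were taken from the members with the largest rises whose stretch holds the motif, and 2 replication genes had one. In Gins3, which rose by 2.06, and Mcm6, which rose by 1.72, the capitals mark TTTCCCGC or TTTGGCGC on either strand, letters of the E2F site through which cell cycle genes are known to be switched on before DNA synthesis. In Kif15, Espl1 and Kif11, which rose by 2.93, 2.76 and 2.71, they mark TTTGAA or its reverse complement TTCAAA, the cell cycle homology region (CHR) at which genes of late cell cycle phases are known to be repressed in resting cells, and CCAAT or its reverse complement ATTGG, the NF-Y site. They lie at chr8:95633459-95633558 (plus) for Gins3, chr1:128359706-128359805 (minus) for Mcm6, chr9:122950981-122951080 (plus) for Kif15, chr15:102296193-102296292 (plus) for Espl1 and chr19:37376282-37376381 (plus) for Kif11.
Gins3: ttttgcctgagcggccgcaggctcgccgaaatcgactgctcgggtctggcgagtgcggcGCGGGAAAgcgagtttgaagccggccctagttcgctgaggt
Mcm6: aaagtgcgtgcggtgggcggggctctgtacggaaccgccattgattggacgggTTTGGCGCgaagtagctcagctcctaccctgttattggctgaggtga
Kif15: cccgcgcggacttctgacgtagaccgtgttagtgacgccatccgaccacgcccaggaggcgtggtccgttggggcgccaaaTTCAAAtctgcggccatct
Espl1: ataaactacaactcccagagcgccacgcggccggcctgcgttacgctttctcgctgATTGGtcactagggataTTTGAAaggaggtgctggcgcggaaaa
Kif11: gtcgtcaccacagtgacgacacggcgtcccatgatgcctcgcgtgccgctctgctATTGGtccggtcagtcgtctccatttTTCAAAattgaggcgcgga
The first base of the CHR letters stands 19 bases before the start in Kif15 and Kif11 and 27 bases before it in Espl1, with the NF-Y letters upstream in Espl1 and Kif11. Motifs of the other kind also occur, in lower case: the CHR letters in Gins3 downstream of its E2F letters, and E2F letters in Kif15 next to its CHR letters.

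Over the 300-base windows, the E2F letters stood in 12 of 42 replication promoters (28.6%), in 3 of 35 mitosis promoters (8.57%) and in 2.91% of the 9615 windows of all genes tested. The CHR letters stood in 26 of 35 mitosis promoters (74.3%), in 14.3% of replication promoters and in 11.9% of all genes tested. The NF-Y letters were common everywhere, in 38.4% of all genes tested, 52.4% of replication and 65.7% of mitosis promoters. Among all genes tested, those that rose by at least 2-fold held the E2F letters in 6.83% and the CHR letters in 20.2% of 820 windows, and those that fell by at least 2-fold in 1.07% and 11.9% of 1122. In the whole table of 27025 promoters the shares were 1.63% for E2F and 18.1% for CHR. A match of letters is a description and not a bound site.

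**Figure D3:**
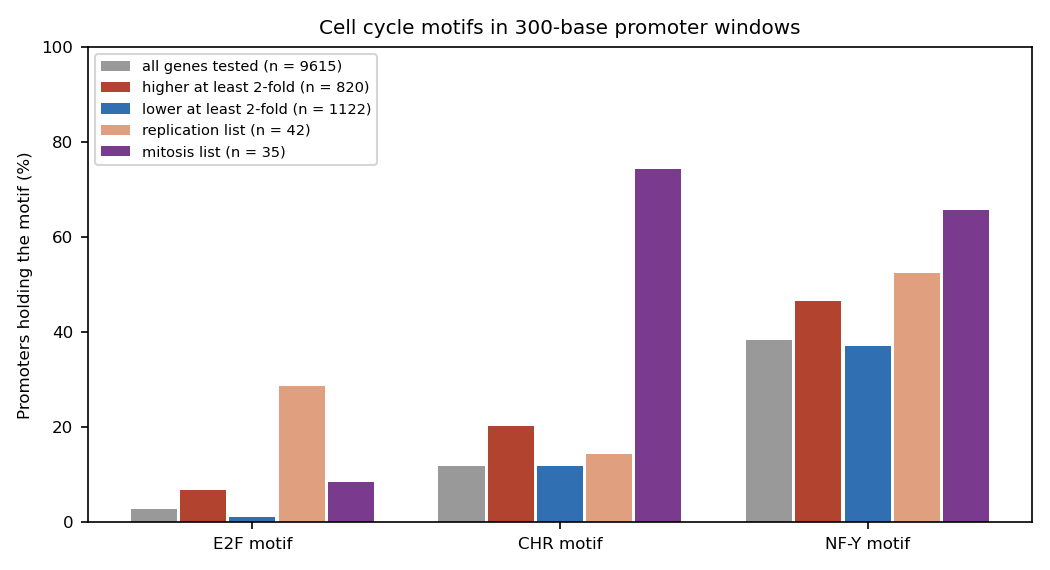
Share of promoter windows (250 bases before to 50 after the start) that hold each motif on either strand, in percent. Bars are all genes tested, genes that rose or fell by at least 2-fold, and the replication and mitosis lists, with the number of windows in the legend. The E2F bar of the replication list stands at 28.6% and the CHR bar of the mitosis list at 74.3%, against 2.91% and 11.9% in all genes tested.

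Genes that decide on entry into the cycle changed in both directions, 14 of 32 higher and 9 lower, against 21.9% and 23.1% of all genes. The median of the list was 0.48. Ccne1, the cyclin of S phase entry, went from 5.55, 5.59 and 5.37 to 7.95, 7.84 and 8.06, a rise of 2.44 ± 0.13 (adjusted p = 5.39e-06), and Ccne2 rose by 2.26. The D cyclins Ccnd1 and Ccnd2, which answer growth signals, rose by 0.70 ± 0.14 and 0.92 ± 0.21, E2f1 and E2f3 by 1.38 and 1.67, and the pocket protein Rbl1 by 1.75. Of 6 inhibitors of cyclin-dependent kinases 3 fell and 1 rose. Cdkn2b, which blocks the kinases of cyclin D, went from 11.71, 11.69 and 11.51 to 7.85, 7.51 and 7.31, a change of -4.08 ± 0.22 (adjusted p = 6.48e-06). Cdkn1a, the inhibitor that p53 induces, went from 9.08, 8.80 and 9.52 to 6.90, 6.64 and 7.35, a change of -2.17 ± 0.25, and Cdkn1b fell by 0.95 ± 0.17, on 4 of 9 EG in vitro arrays. In these 3 inhibitors all EG in vitro pools lay below all control pools, and the pools did not overlap in 57.5% of all genes. Cdkn2c, another inhibitor of those kinases, rose by 0.66. Cdkn2d at 0.43, the imprinted inhibitor Cdkn1c, given above, and the antiproliferative gene Btg2, at -0.81 ± 0.92, did not pass.

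Red blood cells in the lung carry globins of the embryonic and the adult type. All 3 embryonic globin genes rose. Hbb-y was at 8.10, 7.49 and 7.69 in control pools and at 12.88, 12.24 and 12.17 in EG in vitro pools, 25.4-fold higher. Hba-x went from 6.68, 6.12 and 6.79 to 9.39, 9.10 and 10.31 (3.07 ± 0.31, adjusted p = 0.000116), and Hbb-bh1, on 2 of 9 control arrays, from 5.02, 4.83 and 4.68 to 7.70, 7.26 and 7.28 (2.57 ± 0.18, adjusted p = 1.62e-05). No pool overlapped in any of them, as in 57.5% of all genes, and for Hbb-y and Hba-x the naming rule required it. The 4 adult globin genes did not pass: Hbb-bs changed by -0.01 ± 0.11, Hbb-bt by 0.06 ± 0.11, Hba-a1 by -0.06 ± 0.12 and Hbb-b2 by -0.30 ± 0.25. The first 3 of these were at 14.64 or higher in every pool, near the top of the scale, where bead signals may level off, and near-identical copies may share signal.

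Of 25 other red cell genes 2 were higher and 7 lower, with a median of -0.04, against 21.9% and 23.1% of all genes. Alas2, the first enzyme of heme synthesis in red cells, went from 12.46, 12.75 and 13.08 to 10.85, 11.09 and 11.13, a change of -1.74 ± 0.21 (adjusted p = 0.000289). Fech, the last enzyme of that path, fell by 1.13 ± 0.21, the iron carrier Slc25a37 by 0.86 ± 0.14 and the factor Nfe2 by 1.14 ± 0.22. Bcl11a, known as a repressor of embryonic globins, rose by 1.78 ± 0.29, and the transferrin receptor Tfrc by 0.82 ± 0.20. Slc4a1, the anion channel of mature red cells, changed by -0.43 ± 0.17 (adjusted p = 0.0683), and the factor Klf1 by 0.66 ± 0.30 (adjusted p = 0.113). With the replicate block 4 members were higher, against 3642 of all 11911 genes. The liver is the main site of blood formation at this age, and the liver marker Afp was at 5.87, 7.07 and 4.77 in control pools and 10.96, 8.84 and 6.47 in EG in vitro pools. Summed over 9 liver markers the signal was 140.4 to 382.6 in control and 273.9 to 3573 in EG in vitro pools, with the highest in EG in vitro replicate 1, while Alb, Fgb and Tat were detected on 0 arrays of either group. Ttr, Apoa1 and Apoa2 were higher in all 3 EG in vitro pools than in any control pool, while 0 of the 6 liver markers tested passed. The part of liver RNA in the red cell results was not tested.

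Elastic fibres give the lung its recoil, and 8 of 15 of their genes fell and 2 rose, with a median of -0.69, against 23.1% lower over all genes. Eln, elastin, went from 14.55, 14.61 and 14.47 to 12.72, 12.84 and 12.50, a change of -1.86 ± 0.12 (adjusted p = 1.17e-05). Mfap4 of the microfibrils fell by 2.03 ± 0.34, Emilin2 by 1.33 ± 0.32, Ltbp4 by 0.94 ± 0.32 and the crosslinking enzyme Loxl1 by 0.93 ± 0.13. Lox, another crosslinking enzyme, changed by -0.31 ± 0.15 (adjusted p = 0.132), and Fbln1 rose by 0.75 ± 0.17. Emilin1 was the other that rose, and the count was 1 without any single pool other than control replicate 3.

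Basement membranes underlie epithelium and capillaries, and 12 of 24 of their genes fell and 3 rose, with a median of -0.62, against 23.1% lower over all genes. Col4a1, the common type IV chain, fell by 1.08 ± 0.17, and the other type IV chains that fell did so by unequal amounts. Col4a3 went from 9.46, 9.22 and 10.56 to 6.00, 6.39 and 6.47, a change of -3.46 ± 0.32, Col4a4 fell by 1.91 ± 0.43, and Col4a5, which joins both in one network, fell by 0.59. Lamc3, Tinagl1 and Npnt fell by 2.63, 2.62 and 1.72. Lama1, the laminin chain of early embryos, rose by 2.15 ± 0.27. Lama5 changed by -0.72 ± 0.30 (adjusted p = 0.0908, and 0.00448 with the replicate block).

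Interstitial matrix genes did not move as a group. Of 25 genes 6 were higher and 5 lower, against 21.9% and 23.1% of all genes. The median of the list was 0.03. The collagens Col1a1 and Col3a1 changed by 0.26 ± 0.39 and 0.49 ± 0.68, with the third pool of each group apart in both genes, and Col3a1 had an adjusted p of 0.0496 with the replicate block. The small proteoglycans Lum, Fmod and Dcn rose by 2.85 ± 0.46, 2.70 ± 0.24 and 1.19 ± 0.16, the large one Vcan by 2.12 ± 0.64 and the collagen hydroxylase P4ha3, on 2 of 9 control arrays, by 1.64 ± 0.24. Fn1, fibronectin, went from 13.31, 13.22 and 14.03 to 10.97, 11.28 and 11.20, a change of -2.37 ± 0.21, Plod1 fell by 0.87 ± 0.15 and Tnc changed by 0.03 ± 0.21. With the block 10 were higher and 8 lower, against 3642 and 3530 of all 11911 genes.

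Cartilage rings hold the large airways open. Of 12 cartilage genes 6 rose and 3 fell, against 21.9% and 23.1% of all genes. The median of the list was 0.44. Col2a1 was at 4.62, 4.72 and 4.71 in control pools and at 7.87, 7.61 and 8.99 in EG in vitro pools. Col9a1 rose by 3.08 ± 0.39, Col9a2 by 1.17 ± 0.33 and Mia by 2.08 ± 0.14, and Col9a3, on 0 of 9 control arrays, was at least 2.11-fold higher. Chad, an adhesive protein of mature cartilage, went from 8.27, 8.99 and 9.87 to 4.91, 5.07 and 5.15, on 2 of 9 arrays (adjusted p = 5.7e-05). Smooth muscle genes of airways and vessels rose in part, 5 of 13 against 21.9% of all genes. Their list had 0 lower and a median of 0.18. Actg2 rose by 1.57 ± 0.14, the factor Myocd by 1.19 ± 0.16, Myh11 by 1.03 ± 0.26, Tpm2 by 1.00 ± 0.11 and Acta2 by 0.88 ± 0.13, while Tagln and Des changed by 0.04 ± 0.25 and 0.18 ± 0.18. Markers of other muscle moved too. In mice heart muscle extends along the lung veins, and all 6 heart markers tested fell, Myh6 by 2.04 and Myl7 by 1.82, with a summed signal of 8823 to 12060 in control and 3332 to 5408 in EG in vitro pools. Of the 6 skeletal muscle markers 1, Ckm, fell and 0 rose, and they summed to 341.1 to 397.1 in control and 288.1 to 2877 in EG in vitro pools, where Acta1 was at 7.80, 5.88 and 10.09. Their part in these results was not tested.

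Of 21 genes of capillary and other endothelium 11 fell and 1 rose, with a median of -0.46, against 23.1% lower over all genes. Gpihbp1, a capillary lipase anchor, went from 10.37, 10.37 and 10.63 to 7.83, 7.96 and 8.10, a change of -2.49 ± 0.22 (adjusted p = 5.75e-05). Vwf, Chst1, Pecam1, Ptprb and Cdh5 fell by 1.89, 1.83, 1.31, 1.22 and 1.07, the last being the junction protein common to all endothelium. Aplnr, a receptor of growing vessels, rose by 0.92 ± 0.14. Ednrb, Plvap and Apln changed by -0.22 ± 0.10, -0.29 ± 0.18 and -0.02 ± 0.62 and did not pass.

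**Figure D4:**
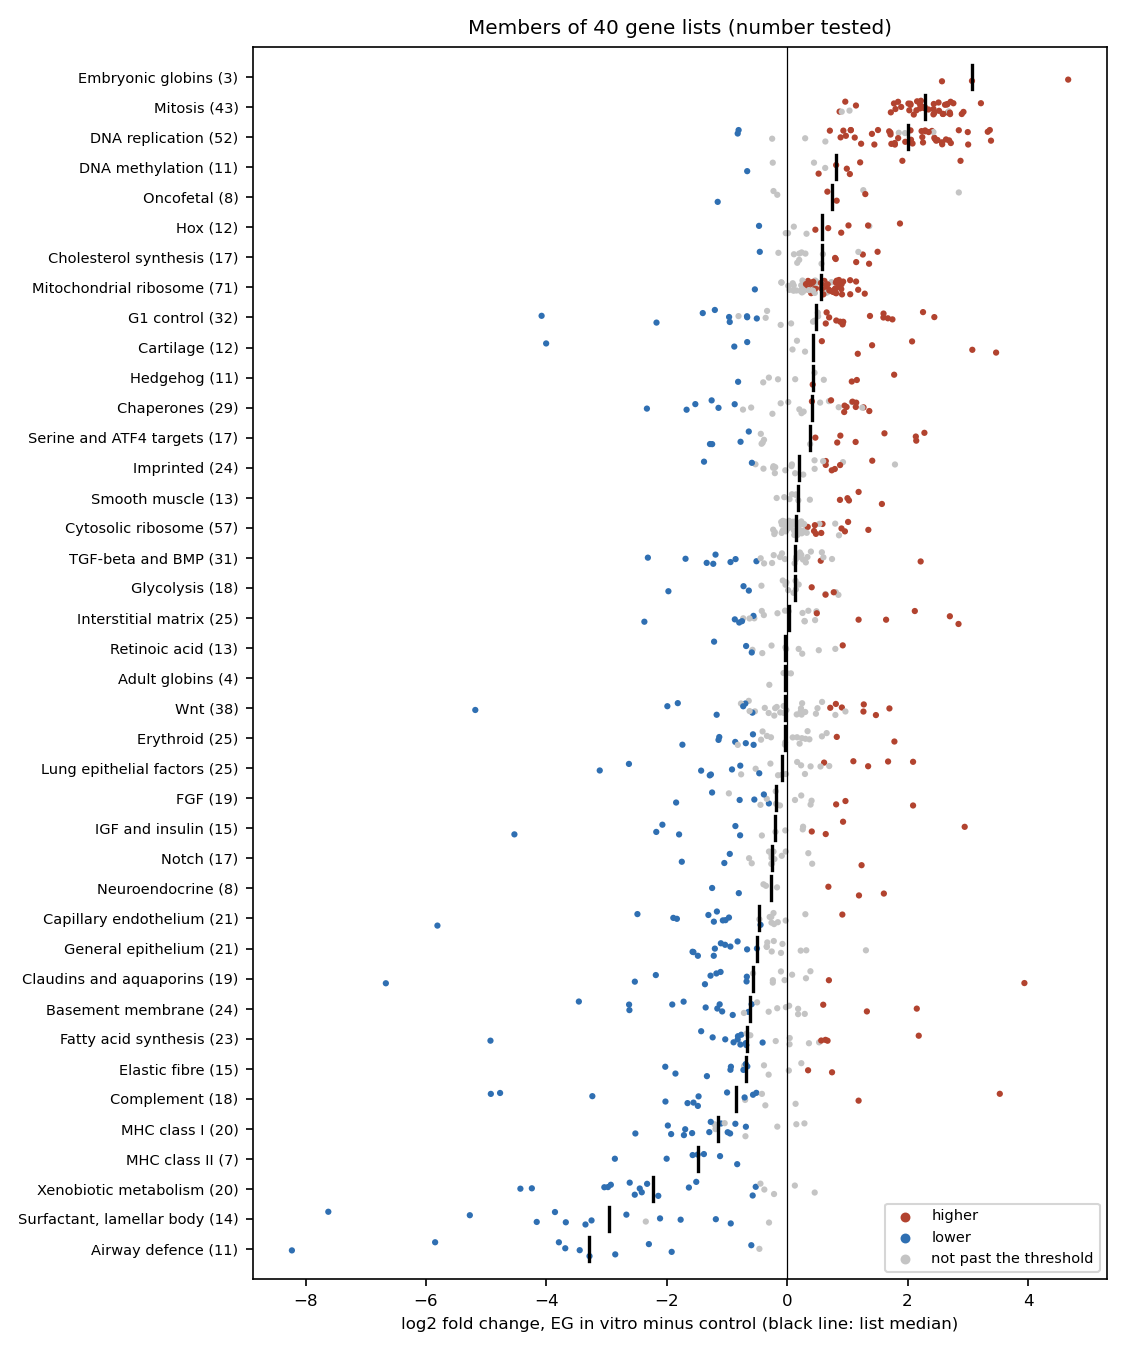
Log2 fold change, EG in vitro minus control, for the members of 40 gene lists, ordered by their median (black line). Each point is a gene, red where it rose, blue where it fell and grey where it did not pass, and the number tested stands beside each list. Embryonic globins, mitosis and DNA replication lie at the top with medians of 3.07, 2.29 and 2.01, and airway defence, surfactant and xenobiotic metabolism at the bottom with -3.28, -2.96 and -2.23.

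Surfactant is made of lipid, and 12 of 23 genes of fatty acid synthesis and storage fell and 4 rose, with a median of -0.67, against 23.1% lower over all genes. Scd1 went from 13.56, 13.71 and 13.40 to 8.84, 8.40 and 8.64, 30.5-fold lower (adjusted p = 1.37e-06). Fasn, the synthase, fell by 1.03 ± 0.12, the regulator Srebf1 by 0.69 ± 0.14, the droplet protein Plin2 by 0.82 ± 0.12, and Acsl4, Gpam and Elovl1 by 1.43, 1.24 and 0.89. A second probe of Acsl4 changed by -0.71 and did not pass (adjusted p = 0.0645). Elovl6, which lengthens fatty acids, rose by 2.19 ± 0.13, from 7.39, 7.45 and 7.25 to 9.59, 9.33 and 9.73, and Acly changed by 0.04 ± 0.10. Cholesterol synthesis genes were higher in part, with 6 of 17 higher, 1 lower and a median of 0.57, against 21.9% higher over all genes. Dhcr7, Cyp51, Hsd17b7, Sqle and Lss rose by 1.50, 1.36, 1.26, 1.15 and 0.81, and the regulator Srebf2 changed by 0.24 ± 0.16. Ebp, the 1 that fell, did not pass without control replicate 1 or 2 or EG in vitro replicate 1 or 2.

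Of 20 genes that handle foreign compounds 15 fell and 0 rose, with a median of -2.23, against 23.1% lower over all genes. Cyp2e1, a cytochrome P450, was at 8.81, 9.09 and 9.15 in control pools and on 0 of 9 EG in vitro arrays, at least 14.2-fold lower, and Cyp2b10 was at least 1.97-fold lower on the same ground. The oxidase Aox3 fell by 4.24 ± 0.21, the monooxygenases Fmo1 and Fmo2 by 3.04 and 2.62, Cyp4b1 by 2.98, the epoxide hydrolase Ephx1 by 2.93 and Cyp2s1 by 2.53. One member was higher with the replicate block and without control replicate 3.

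Among 17 genes of serine and one-carbon metabolism and of the amino acid response led by Atf4, 8 rose and 4 fell. Over all genes 21.9% rose and 23.1% fell. The median of the list was 0.38. This median lay between falls and rises, and turned to -0.18 without control replicate 3 and -0.07 without EG in vitro replicate 1. Mthfd2, a mitochondrial folate enzyme, went from 8.11, 7.80 and 7.86 to 10.27, 10.07 and 10.27, a rise of 2.28 ± 0.13. Aldh18a1, which makes proline precursors, rose by 2.14 ± 0.12, Phgdh, the first step of serine synthesis and on 4 of 9 control arrays, by 2.14 ± 0.26, Asns by 1.62 ± 0.14, Shmt1 by 1.14 ± 0.14, Psat1 by 0.88 ± 0.16 and Atf4 by 0.47 ± 0.13. Second probes of Aldh18a1 and Atf4 changed by 0.75 and 0.195 and did not pass (adjusted p = 0.13 and 0.486), while that of Asns rose by 1.70. Trib3 and Vldlr fell by 1.28 and 1.25, and 7 members fell with the replicate block, against 3530 of all 11911 genes. In glycolysis 3 of 18 rose and 3 fell, with a median of 0.12, against 21.9% higher and 23.1% lower over all genes. Pkm, Tpi1 and Ldha rose by 0.77, 0.64 and 0.41, Aldoc, Pfkp and Hk1 fell by 1.97, 0.73 and 0.64, and the glucose carrier Slc2a1 and the kinase Pdk1 changed by 0.19 ± 0.14 and 0.02 ± 0.14. With the block 6 rose, against 3642 of all 11911 genes. Without EG in vitro replicate 1, 1 rose and 1 fell, and 1 fell without control replicate 1 or 3 or EG in vitro replicate 2.

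Of 29 chaperone genes 10 were higher and 6 lower, with a median of 0.41, against 21.9% and 23.1% of all genes. Hspd1, a chaperonin of mitochondria, and Cct3, a chaperonin subunit of the cytosol, rose by 1.15 ± 0.18 and 1.27 ± 0.10, and Hsph1 by 1.36 ± 0.29. The small heat shock proteins Cryab and Hspb8 fell by 2.33 ± 0.28 and 1.53 ± 0.17, and Hspa2 and the stress-induced Hspa1a, on 7 of 9 EG in vitro arrays, by 1.67 and 1.14. Hspa1b changed by -0.11 ± 0.59, and Hsp90aa1 by 0.69 ± 0.45 (adjusted p = 0.261, and 0.00234 with the replicate block).

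Genes of antigen presentation were lower. In the class I list, which holds the class I genes with the peptide transport and immunoproteasome genes that serve them, 13 of 20 fell and 0 rose, with a median of -1.14, against 23.1% lower over all genes. H2-D1 went from 11.26, 11.45 and 11.75 to 8.68, 9.10 and 9.12, a change of -2.52 ± 0.18 (adjusted p = 1.72e-05). B2m, the shared light chain, fell by 0.95 ± 0.12, the peptide transporters Tap2 and Tap1 by 1.93 and 1.27, and the immunoproteasome subunits Psmb9 and Psmb8 by 1.58 and 1.29. Tap1 and Psmb8 were detected on 4 and 6 of 9 EG in vitro arrays. H2-T23, H2-Q7 and H2-K1 fell by 1.98, 1.69 and 1.72. The call of H2-K1 was lost in 8 alternatives with an adjusted p of up to 0.116, among them median scaling and the removal of any single pool other than control replicate 3. Class I genes are near-identical copies that differ between strains, so a probe may read several of them, and the 2 probes of H2-Q8 passed in opposite directions.

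All 7 class II genes tested fell, against 23.1% of all genes. Their median was -1.49, or -1.38 with the undetected member at its bound. Cd74, the chaperone of class II molecules, went from 9.04, 8.77 and 9.76 to 6.12, 5.93 and 6.92, a change of -2.86 ± 0.41 (adjusted p = 0.000768). H2-Aa, on 7 of 9 EG in vitro arrays, fell by 2.00 ± 0.25, H2-Ab1, on 1 of 9, by 1.57 ± 0.22, H2-DMb1 by 1.38, H2-DMb2, on 5 of 9, by 1.12 and H2-DMa by 0.83, and H2-Eb1, on 0 of 9, was at least 2.27-fold lower. Thymus markers were near background in all pools, summing to 100.3 to 112.0 in control and 82.35 to 89.07 in EG in vitro pools. Complement genes fell in 12 of 18 cases, against 23.1% of all genes, and rose in 2, with a median of -0.85, and of -0.79 when the 2 undetected members took their bound. Hc went from 11.07, 11.46 and 10.61 to 6.38, 6.09 and 5.90, a change of -4.92 ± 0.23, C6 was detected on 0 of 9 EG in vitro arrays, and C2, Serping1, Cfb, Cd55 and C1qa fell by 3.24, 2.02, 1.66, 1.56 and 0.51. Cfb was detected on 3 of 9 EG in vitro arrays. The call of C1qa was lost in 7 alternatives, among them the authors' matrix and the removal of control replicate 2 or any single EG in vitro pool. Cfi went from 5.61, 5.78 and 5.65 to 9.21, 9.11 and 9.32, against the direction of the list. Masp2, on 4 of 9 control arrays, was the other that rose, and the count was 1 without any single pool other than EG in vitro replicate 1.

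Genes of ribosomal proteins were read in lists for each compartment. Of 71 genes of the mitochondrial ribosome 42 rose and 1, Mrpl14, fell, with a median of 0.56, while of 57 genes of the cytosolic ribosome 10 rose and 0 fell, with a median of 0.14. Over all genes 21.9% rose and 23.1% fell, and the difference between both lists was not tested. Mrps22, Mrps18b, Mrpl12, Mrps27, Mrps2 and Mrpl1 rose by 1.29, 1.18, 1.14, 1.05, 0.86 and 0.40. In the cytosolic list Rps15a, Rpl7l1, Rplp0, Rpl7a and Rpl13a rose by 1.35, 1.01, 0.96, 0.90 and 0.59, while Rps6 and Rpl3 changed by 0.11 ± 0.13 and 0.03 ± 0.11. The cytosolic count was 6 without control replicate 1 and 5 without EG in vitro replicate 3. The fall of Mrpl14 did not pass without control replicate 1 or 3 or EG in vitro replicate 1 or 2.

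A second transfer group, EG in vivo, of the same strain, sex and day, came from blastocysts that had developed in vivo before transfer, and was compared directly with EG in vitro to ask whether the changes above differ between embryos that were cultured and embryos that were only transferred. With 3 pools each, 0 of 11911 genes passed (0%), and 148 (1.24%) had an unadjusted p under 0.05 in limma's test. That share is below the 0.05 to be reckoned with where no gene differs, and the reason was not tested. The median size of the difference was 0.084, against 0.480 between EG in vitro and control, and its 95th percentile was 0.325, against 2.11. The median standard error of a difference was 0.178, which is larger than the median size of the difference. The 5 genes with the lowest p were Tgm1, a crosslinking enzyme of epithelia, at -0.83 ± 0.15, Nuf2 of the kinetochore at -0.61 ± 0.11, Klhdc9 at -0.57 ± 0.13, Cyp3a13, a cytochrome P450, at -0.49 ± 0.12, and Enkur, a protein of cilia, at -0.57 ± 0.15. Each had an adjusted p of 1.00 in limma's test. All 5 changed in the same direction against control in both groups, Tgm1 by -2.36 in EG in vitro against -1.53 in EG in vivo. Tgm1 was detected on 5 of 9 EG in vitro arrays and Nuf2 on 1 of 9 control arrays.

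Both transfer groups were set against the same control pools, so their changes share those pools and are given side by side only. With the EG in vitro value first, Scgb1a1 changed by -8.23 and -7.08, Sftpd by -7.62 and -6.87, Sftpb by -3.68 and -3.43, and Hopx by -2.63 and -2.18. Sox9 changed by 1.68 and 1.67, Cldn6 by 3.94 and 4.03, Mcm5 by 2.85 and 2.78, and Hbb-y by 4.67 and 4.45. The list medians were -2.96 and -2.65 for surfactant, 2.01 and 1.89 for replication, 2.29 and 2.25 for mitosis, and 0.20 and 0.11 for imprinted genes. Grb10 changed by 0.79 and 0.93, Igf2 by 0.64 and 0.69, and Peg3 by 0.45 and -0.04. For Scgb1a1 the direct difference of the transfer groups had an unadjusted p of 0.0611 and an adjusted p of 1.00.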

How the data were processed

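RNA of the left lung lobe was measured on Illumina mouse bead arrays. The authors deposited a table of non-normalized average signal intensities with a detection p-value for each probe and array, per the file headers, and a processed matrix of linear, quantile-normalized intensities, whose scale was found by setting it against the first table. No header or label names the scanner or its program. Signals of all 27 arrays were corrected for background with limma 3.58.1 (R 4.3.3) from the detection p-values as in neqc, with an offset of 16, put on the log2 scale and quantile normalized. The 3 technical arrays of a pool were averaged, and limma was fitted over all 9 pools of the 3 groups. Of 45281 probes, 34885 carried 1 gene symbol in the platform annotation. Probes detected at p under 0.05 on at least 6 of 9 arrays of either group were kept, and a gene was read from its kept probe with the highest mean. Where a group was detected on none of its arrays, the difference is given as a lower bound, against the lowest signal among detected probes of each array or the probe's own signal, whichever was higher. The fit was tested on simulated data before use.

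Genes were named by rule: the 20 deepest falls and 20 largest rises among called genes whose pools did not overlap (clone and model names left out), preset key members of each list whatever their value, up to 4 more called members with the largest change, and the 5 genes with the lowest p between the transfer groups. Genes named for their promoter motif, as exceptions, markers or not-called members of a short list were chosen after their values were seen. The members and lists were chosen with earlier results of these data known, so a list's count is a description. Pools of the same replicate number deviated from their group means together (correlations of 0.585, 0.538 and 0.828 over probes), and all 3 were over 0.1, by which the numbers were taken to pair the samples. Control replicate 2 correlated more with EG in vitro replicate 1 (0.775), so the numbers 1 and 2 are not singled out by the data. The main fit, on which the reported calls rest, held no block, and the block was run as an alternative. Promoters are RefSeq's, build GRCm38.p6, with the first listed start of a gene. The precision is limited by 3 pools a group. Alternatives tried were the authors' matrix, median scaling, an offset of 50, no filter, detection on all 9 arrays, the 2 groups alone, the mean of a gene's probes, the replicate block, replicates 1 and 2 alone, and leaving out each pool.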

Additional observations from a re-analysis of the deposited data

How the results depend on the processing

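The counts of 2608 higher and 2757 lower genes were 2631 and 2749 in the authors' matrix, 2376 and 2702 with median scaling, 2627 and 2760 with an offset of 50, 2553 and 2723 with no filter, 2601 and 2678 with detection on all 9 arrays, 2507 and 2671 with the 2 groups alone, 2720 and 2823 with the mean of a gene's probes, and 3385 and 3479 with replicates 1 and 2 alone. With the replicate number as a block they were 3642 and 3530, and every call made without the block was kept. Leaving out 1 pool at a time gave 2108 to 2583 higher and 2192 to 2628 lower genes. Between the transfer groups 0 genes passed in every alternative run for that comparison, the block included. Of the 284 called named genes, 252 passed in every alternative. Calls were lost in 5 to 8 alternatives for C1qa, Cldn11, Elovl1, Fgf10, H2-DMa, H2-K1, Hk1, Ldha, Lin28b, Ltbp4, Mrpl1, Nap1l5, Pfkp, Rpl13a, Spry4 and Vcan, and in 1 to 4 for Atf4, Ccnd1, Col9a2, H2-DMb2, Hoxa2, Igf1, Igf2bp1, Jag2, Jup, Mbd3, Rarg, Rplp0, Sfrp1, Sufu, Tfrc and Tpi1. No named gene that passed turned its sign in any alternative. The named genes that turned were not called, most were near 0 (not Sox2, Btg2 and Col3a1), and the cause was not tested. With median scaling Tagln was -0.021 and Apln 0.049, and with the mean of probes Igf2r was 0.058 and Hbb-bt -0.075. With replicates 1 and 2 alone Foxa2 was 0.011, Mest -0.0037, Hoxa5 -0.070, Hbb-bs 0.0042, Tagln -0.11, Des -0.0079, Acly -0.032 and Pdk1 -0.070. Leaving out 1 pool at a time, the change ranged from -0.23 to 0.00090 for Nkx2-1, -0.18 to 0.093 for Notch1, -0.096 to 0.23 for Tnc, -0.18 to 0.20 for Tagln, -0.64 to 0.40 for Hspa1b, -0.019 to 0.40 for Lef1, -0.80 to 0.29 for Spry2, -1.78 to 0.069 for Btg2, -0.0059 to 0.13 for Hbb-bt, -0.044 to 0.66 for Col1a1, -0.49 to 0.59 for Apln, -0.035 to 0.090 for Pdk1, -0.16 to 0.10 for Foxa2, -0.37 to 1.42 for Sox2, -0.35 to 0.15 for Shh, -0.094 to 0.063 for Igf2r, -0.048 to 0.23 for Mest, -0.040 to 0.093 for Hoxa5, -0.042 to 0.056 for Hbb-bs, -0.22 to 0.97 for Col3a1, -0.0079 to 0.079 for Acly, -0.15 to 0.039 for Id1 and -0.0039 to 0.086 for Rpl3. For the gene lists, 676 of 720 counts outside the fits that left out a pool lay within a factor of 1.5 of the reported count, and 326 of 360 medians moved by less than the spread between pools. The authors' matrix gave the smallest medians, at -1.81 for airway defence, -1.17 for xenobiotic genes, -0.60 for class I, -0.54 for class II, -0.49 for complement, 1.58 for replication, 1.92 for mitosis and 2.11 for embryonic globins. An offset of 50 gave -2.35 for airway defence, -1.64 for xenobiotic genes and -0.96 for class II. With no filter, which adds dim probes, the median was 0.055 for hedgehog, 0.088 for fetal growth, 0.038 for Hox and 0.019 for serine genes. The count of lower FGF genes was 3 with the 2 groups alone, that of lower Notch genes 6 with the mean of probes, and with replicates 1 and 2 alone 13 Wnt genes were lower and 8 epithelial factors, 10 imprinted and 10 cholesterol genes were higher. Medians near 0 turned sign in some fits: the Wnt median was 0.02 with median scaling, the TGF-beta and BMP median -0.01 with replicates 1 and 2 alone and -0.04 without control replicate 3, and the interstitial matrix median ranged down to -0.15 without control replicate 3. The blocked values that changed a call stand beside their results, and the block changed no other call of a gene named by rule. Bead signals near background or near the top of the scale limit what a difference can show, and 215 of the genes tested were detected on 0 EG in vitro arrays.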
